A study of Mus musculus with 16 samples.

Results

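The response of each gene to IL-6 was compared between STAT3-deficient and wild-type (WT) mouse CD4+ T cells, as a genotype by IL-6 interaction over 16 of the 16 arrays of the series. Each array held 1 sample, and the arrays fell into 8 groups of 2. Naive T cells (CD4+ CD44- CD62L+) had been sorted and then activated with anti-CD3 and anti-CD28 for 3 days, in medium, with IL-6 (10 ug/ml), with TGFb (2.5 ug/ml) or with both cytokines, the doses in the unit of the labels. STAT3-deficient cells had the genotype CD4 Cre; STAT3floxed, in which Cre is driven by CD4 and the deletion is therefore made in T cells, and WT cells had the genotype STAT3floxed, so all groups shared the floxed allele. For each gene, TGFb state and replicate number, the IL-6 effect in WT cells (log2 level with minus without IL-6) was subtracted from that in STAT3-deficient cells. This gave 4 interaction values per gene for 13007 genes. A negative value means a smaller rise or a larger fall with IL-6 in STAT3-deficient cells, and the mean of the 4 is called the average interaction here.

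IL-6 binds its receptor together with gp130, whose kinases of the JAK family phosphorylate STAT3, which then enters the nucleus as a dimer and activates genes. In CD4+ T cells this pathway is known for Th17 differentiation, for which TGFb is the second signal, and for inducing the cytokine IL-21. Among the genes that STAT3 activates are its own inhibitor Socs3 and transcription factors of T cell differentiation.

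The level of Stat3 went with the labels, with a small overlap. It lay between log2 10.22 and 12.18 on the 8 WT arrays and between 8.40 and 10.46 on the 8 STAT3-deficient arrays. Whether this probe set covers the floxed exons was not known here, and one outside them would not check the deletion. The STAT3-deficient array labelled TGFb replicate 2 (10.46) read above the lowest WT array, and over the 3000 most variable genes it was most like WT TGFb replicate 2 (r = 0.90). STAT3-deficient TGFb replicate 1 was most like STAT3-deficient IL-6 with TGFb replicate 1 (r = 0.44). Both of these arrays enter the interaction with TGFb, and the counts of genes past the threshold and several named genes and lists are also given without them. The replicate numbers also parted the arrays by sex-linked genes, with Eif2s3y of the Y chromosome between 3.81 and 4.52 on replicate 1 arrays and between 9.84 and 10.98 on replicate 2 arrays. Each of the 4 values compares arrays of 1 replicate number, so a shift shared by these arrays cancels. A response to IL-6 that itself differs between the replicate numbers does not cancel. Marker genes of B cells, erythroid cells, CD8 and gamma delta T cells were under log2 8 on all arrays. Among the other marker lists the summed stromal markers had 4 interaction values below 0 (-0.85, -1.53, -1.23 and -0.17), of which 5 of 7 genes were under log2 8 on all arrays and the brightest, Epcam, reached 10.18. The dendritic cell sum, with H2-Ab1 up to 11.32, had values of -1.63, -0.52, 0.57 and -0.79. The NK cell sum, with Klrc1 up to 8.85, had 1.00, 0.73, -0.19 and -1.61. Values of the T cell and myeloid sums were also of mixed sign. RNA quality, read as the signal of the 5' less that of the 3' Actb control, had interaction values of -0.21, -0.44, -0.29 and 0.01. This Actb signal also parted by replicate number, from -0.50 to -0.11 on replicate 1 and from -1.71 to -0.88 on replicate 2 arrays. The part of these differences in the results below was not tested. Fewer cells of a type and less RNA per cell cannot be told apart in bulk samples. The labels do not say what the replicate numbers stand for, so a p-value here speaks for the spread among these 16 arrays alone.

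Most genes with a different response to IL-6 had a lower value in STAT3-deficient cells. The average interaction was past the threshold (limma, Benjamini-Hochberg adjusted p under 0.05) for 46 genes, 0.354% of those tested, of which 38 were lower (0.292%) and 8 higher (0.0615%). With the replicate number as a block, since the numbers pair the arrays, it was past the threshold for 242 genes (1.86%), 223 lower (1.71%) and 19 higher (0.146%), among them all 46. After quantile normalization 25 genes passed, 18 lower and 7 higher. The leading genes were Il21, the cytokine IL-21, Serpinf1, a secreted serpin, and Maf, a transcription factor that activates Il21 and Il10, all lower. On the higher side stood Lad1, a basement membrane protein, Tnfsf11, the cytokine RANKL, and Nr4a3, a nuclear receptor induced by the T cell receptor. All 4 values had 1 sign for 45 of the 46 genes, the exception being B4galnt4 (0.02, -0.52, -2.64 and -2.72). The average interaction ranged from -7.02 to -1.07 among the lower genes and from 0.99 to 4.16 among the higher ones, against a median of 0.00 over all genes. Of the 46 genes, 13 had a group mean below log2 6, the level minimum of the filter, where the size of a change depends on the background. Il21, Atp6v0d2, Gprasp2 and Cwh43 reached that minimum only on WT arrays with IL-6. They entered the test through the arrays where they are high, so the lower direction of their calls was not open. Without the filter Il21 and Atp6v0d2 kept their calls. The number of genes past the threshold depended on single arrays. It was 41 without STAT3-deficient TGFb replicate 1 and 160 (128 lower, 32 higher) without STAT3-deficient TGFb replicate 2. It was 115 without WT IL-6 replicate 2 (54 lower, 61 higher) and 85 without WT IL-6 replicate 1. It fell to 29 without WT medium replicate 2, 22 without STAT3-deficient IL-6 replicate 2, 13 without STAT3-deficient medium replicate 1 and 12 without STAT3-deficient IL-6 replicate 1. It was 10 without STAT3-deficient medium replicate 2, 9 without WT medium replicate 1, 8 without either WT IL-6 with TGFb array, 7 without either WT TGFb array or without STAT3-deficient IL-6 with TGFb replicate 2, and 6 without STAT3-deficient IL-6 with TGFb replicate 1.

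**Figure D1:**
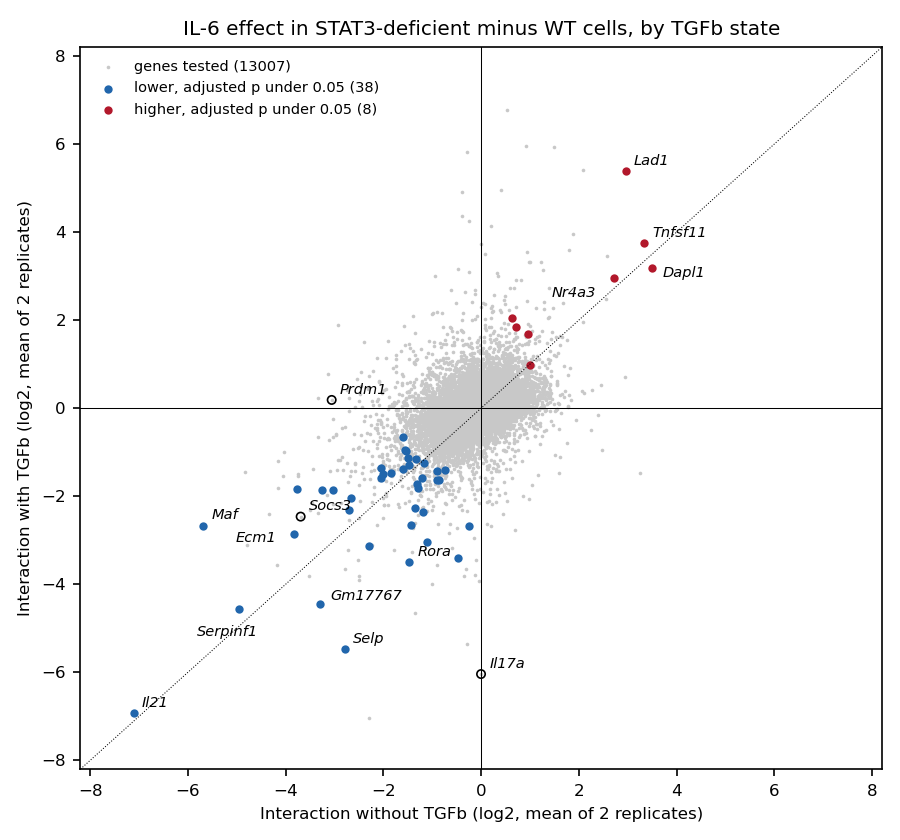
Interaction of each of 13007 genes without TGFb (horizontal axis) and with TGFb (vertical axis), each the mean of 2 replicate values on the log2 scale; coloured points are the 46 genes whose average interaction passed the threshold, and open circles mark 3 genes that did not. Il21 lies at about -7 on both axes, and Il17a near 0 without TGFb and at -6.04 with it.

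Genes chosen without TGFb were then read in the cultures with TGFb, which share no array with the former, although replicate numbers recur in both. Both replicate values without TGFb were at or below -1 for 479 genes. With TGFb, 314 of these (65.6%) had both values below 0, against 30.2% of all genes tested, and 104 (21.7%) had both at or below -1, against 2.10%. In replicate 2 alone 89.8% of the 479 were below 0 with TGFb, and in replicate 1 alone, which uses STAT3-deficient TGFb replicate 1, 69.7%. Of the 83 genes with both values at or above 1 without TGFb, 51 (61.4%) were above 0 in both replicates with TGFb, against 33.7% of all genes. Across the 13007 genes, which are not independent of each other, the means of the states correlated at r = 0.45. Single values correlated between 0.16 and 0.51, the lowest being replicate 1 without against replicate 1 with TGFb.

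All 4 values had 1 sign for 3937 genes (30.3%), 2299 (17.7%) below 0 and 1638 (12.6%) above. At least 1 on the log2 scale in each of the 4 was reached by 117 genes (0.9%), 104 lower (0.8%) and 13 higher (0.0999%), with Tpp1 (smallest value 1.00) just inside and Mt2 (0.995) just outside. At least 2 in each was reached by 18 genes (0.138%), 15 lower (0.115%) and 3 higher (0.0231%), and 10 of the 18 were past the threshold. The lower 15 were Il21, Serpinf1, Ctla2b, Gm17767, Cysltr1, Selp, Plac8, Ecm1, Atp6v0d2, Myo6, Gatm, Sema4f, Mgll, Flot1 and Maf, and the higher 3 were Tnfsf11, Dapl1 and Nr4a3. With the replicate block 17 of the 18 passed, all but Myo6 (adjusted p = 0.0913). Flot1, a scaffold protein of lipid rafts, was among those that passed with but not without the block, with 4 values of -2.42, -2.04, -2.03 and -2.25 (adjusted p = 0.141 without and 0.00758 with the block). Its level differed between replicate numbers within a condition, for example 8.09 and 9.57 in WT medium. Flot1 was chosen after its values were seen.

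Among cytokines and transcription factors, Il21 stood first. In WT cells Il21 read log2 4.75 and 5.49 in medium, 12.23 and 11.72 with IL-6, 5.86 and 4.46 with TGFb and 12.39 and 11.54 with both. In STAT3-deficient cells it read 4.64 and 5.73 in medium, 4.75 and 5.09 with IL-6, 5.32 and 4.32 with TGFb and 4.70 and 4.70 with both. The 4 WT arrays with IL-6 were thus high and the other 12 arrays all lay below log2 6. The IL-6 response was 129.7-fold smaller in STAT3-deficient cells (average interaction -7.02, SE 0.53, adjusted p = 0.000388), a size that depends on the background. Maf differed in its dependence on TGFb. In WT cells it read 5.32 and 5.29 in medium, 10.34 and 11.82 with IL-6, 9.92 and 9.90 with TGFb and 12.58 and 12.51 with both. The STAT3-deficient arrays read 4.95 and 5.73 in medium, 5.13 and 5.73 with IL-6, 11.37 and 10.17 with TGFb and 10.72 and 10.75 with both. With TGFb alone the level was thus high in both genotypes, and with both cytokines the WT arrays lay above all others. Its 4 interaction values were -4.84, -6.54, -3.31 and -2.03 (average -4.18, SE 0.47, adjusted p = 0.00573). For Rora, a nuclear receptor that drives Th17 differentiation, the values were -1.19 and -1.77 without TGFb and -4.27 and -2.73 with it (average -2.49, SE 0.37, adjusted p = 0.0283). STAT3-deficient TGFb replicate 1 read Rora at 10.35, the highest of the STAT3-deficient arrays, and 1 of its 7 other probe sets gave the opposite sign. Rora passed without that array (-2.20, adjusted p = 0.0271) and without STAT3-deficient TGFb replicate 2 (-2.78, adjusted p = 0.00376), but in only 5 of 16 fits that left out 1 array and 15 of all 29 alternatives. It did not pass with the mean of its probe sets (-1.33, adjusted p = 0.0594) or with STAT3-deficient TGFb replicate 1 and IL-6 with TGFb replicate 1 exchanged (-1.46, adjusted p = 0.472). Trib2, a pseudokinase, rounded off the regulators among the leading lower genes (-3.17, -3.36, -1.69 and -2.01, adjusted p = 0.0367). It did not pass with the mean of its probe sets (-1.57, limma adjusted p = 0.106).

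The sequences before the starts of 4 genes are shown because STAT proteins bind a known palindromic motif, TTCNNNGAA, which is the same on both strands. Il21 and Tnfsf11 are a leading lower and a leading higher gene, Socs3 is the classical STAT3 target discussed below, and Arid5b, chosen after the search, is a gene past the threshold that carries the motif. Each line gives the 250 bases before the gene's start in its own direction, from RefSeq (GRCm38.p6), with the motif in capitals. Positions were chr3:37232637-37232886 for Il21, chr14:78308044-78308293 for Tnfsf11, chr11:117969367-117969616 for Socs3 and chr10:68278727-68278976 for Arid5b, all on the minus strand.
Il21: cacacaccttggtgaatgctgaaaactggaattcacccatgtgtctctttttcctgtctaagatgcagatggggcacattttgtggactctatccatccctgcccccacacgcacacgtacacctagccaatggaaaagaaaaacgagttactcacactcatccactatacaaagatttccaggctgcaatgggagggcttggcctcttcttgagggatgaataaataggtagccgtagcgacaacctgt
Tnfsf11: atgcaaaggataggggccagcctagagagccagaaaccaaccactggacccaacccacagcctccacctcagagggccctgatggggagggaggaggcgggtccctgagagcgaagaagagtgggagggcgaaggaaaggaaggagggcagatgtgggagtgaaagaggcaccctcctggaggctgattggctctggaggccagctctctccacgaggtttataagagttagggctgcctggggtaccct
Socs3: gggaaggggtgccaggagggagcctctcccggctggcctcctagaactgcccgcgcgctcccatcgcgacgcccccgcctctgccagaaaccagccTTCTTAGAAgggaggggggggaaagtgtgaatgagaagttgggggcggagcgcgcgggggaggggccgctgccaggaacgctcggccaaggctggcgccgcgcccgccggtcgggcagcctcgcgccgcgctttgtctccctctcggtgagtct
Arid5b: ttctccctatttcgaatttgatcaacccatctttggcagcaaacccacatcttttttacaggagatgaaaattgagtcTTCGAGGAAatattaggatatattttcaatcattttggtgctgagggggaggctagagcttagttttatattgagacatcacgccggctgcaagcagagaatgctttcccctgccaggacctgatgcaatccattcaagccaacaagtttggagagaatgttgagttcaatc
The motif began 154 bases before the start of Socs3 and 172 bases before that of Arid5b, and these letters were not in the windows of Il21 and Tnfsf11. Of the 46 genes past the threshold, 41 had a promoter in the table, and 3 of these (7.32%) held the motif, namely Arid5b, Fam111a and Stn1. The share was 7.12% of 10505 genes tested and 8.13% of all 27025 genes with a promoter, so the motif in this window was about as frequent in the genes past the threshold as in the others. A match is a description and not a binding site.

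Serpinf1, Ecm1, Adamtsl4 and Selp, which encode secreted or surface proteins, were also among the leading lower genes. Serpinf1 read 7.28 and 8.41 in WT medium against 11.71 and 12.98 with IL-6, and 6.41 and 5.78 with TGFb against 10.32 and 9.56 with both. STAT3-deficient cells read 7.47 and 8.19 in medium, 6.38 and 8.35 with IL-6, 7.50 and 6.30 with TGFb and 6.11 and 6.25 with both. The 4 WT arrays with IL-6 again lay above the other 12 (average interaction -4.77, SE 0.67, adjusted p = 0.0237). Ecm1, an extracellular matrix protein also made by Th2 cells, read 13.83 and 12.85 in WT cells with IL-6 and 11.73 and 11.10 with both cytokines. Its other 12 arrays lay between 8.51 and 10.38, and the average interaction was -3.34 (SE 0.41, adjusted p = 0.00965). Adamtsl4, the protein-coding neighbour of Ecm1 on chromosome 3 and the only neighbouring pair among the 46 genes, was lower too (-2.81, SE 0.45, adjusted p = 0.0333). Selp, the adhesion molecule P-selectin, had larger interaction values with TGFb (-5.42 and -5.53) than without it (-3.07 and -2.52), with adjusted p = 0.0374 for the average. The difference between the states was not past the threshold for Selp. Its average did not pass with STAT3-deficient TGFb replicate 1 and IL-6 with TGFb replicate 1 exchanged (-3.99, limma adjusted p = 0.0602). Atp6v0d2, a subunit of the vacuolar proton pump, stayed at or below 5.46 on all arrays but the 4 WT arrays with IL-6, which read 6.58 to 7.49 (average interaction -2.72, adjusted p = 0.0146). The remaining leading genes were Gm17767, a predicted gene (-3.88, adjusted p = 0.0056), Piwil2, a protein that binds small RNAs (-2.51, adjusted p = 0.0351), and Tha1, a threonine aldolase (-2.44, adjusted p = 0.00573). The other lower genes averaged between -2.36 (Gprasp2) and -1.07 (Itpr3, a calcium channel of the endoplasmic reticulum). Chosen after their values were seen, they included Acvr2a, an activin receptor (-1.81), Med13l, a subunit of the Mediator complex (-1.70), Tpp1, a lysosomal peptidase (-1.49), and Arid5b, a DNA-binding protein (-1.39).

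All 8 higher genes fell with IL-6 in WT cells. Tnfsf11 in WT cells read 10.42 and 9.55 in medium, 6.79 and 6.00 with IL-6, 9.89 and 9.54 with TGFb and 6.41 and 6.54 with both. All 8 STAT3-deficient arrays lay between 9.25 and 10.54. The 4 WT arrays with IL-6 were therefore low and the other 12 high, with 4 values between 3.12 and 4.02 (average 3.54, SE 0.38, adjusted p = 0.00573). Lad1 read 7.17 and 5.46 in WT cells with IL-6 and 5.36 and 5.64 with both cytokines, and between 8.46 and 10.62 on the other 12 arrays. Its 4 values spread from 1.73 to 6.24 (average 4.16, SE 0.63, adjusted p = 0.0283), and it passed without either STAT3-deficient TGFb array but not with the exchange (3.56, adjusted p = 0.127). Nr4a3 lay between 9.13 and 9.75 on the WT arrays with IL-6 and between 10.40 and 12.30 elsewhere (average 2.84, SE 0.49, adjusted p = 0.0404). Its call was kept in 13 of 29 alternatives and in 3 of the 16 that left out 1 array, and the mean of its probe sets gave 1.09 (adjusted p = 0.0765). Dapl1, named for its likeness to a death-associated protein, had an average of 3.33 (SE 0.56, adjusted p = 0.0375). With the exchange Dapl1 did not pass (2.85, limma adjusted p = 0.127). Of the 8 higher genes only Tnfsf11 passed with the exchange (3.27, adjusted p = 0.0148). The other 4 genes moved less: Litaf, a regulator of TNF (1.34), Fam111a, a protease that restricts viruses (1.32), Adgre5, the adhesion receptor CD97 (1.28), and Asf1a, a histone chaperone whose 4 values lay between 0.92 and 1.03 (0.99). With the mean of probe sets, Asf1a gave 0.50 (limma adjusted p = 0.330) and Tnfsf11 2.59 (adjusted p = 0.0614).

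**Figure D2:**
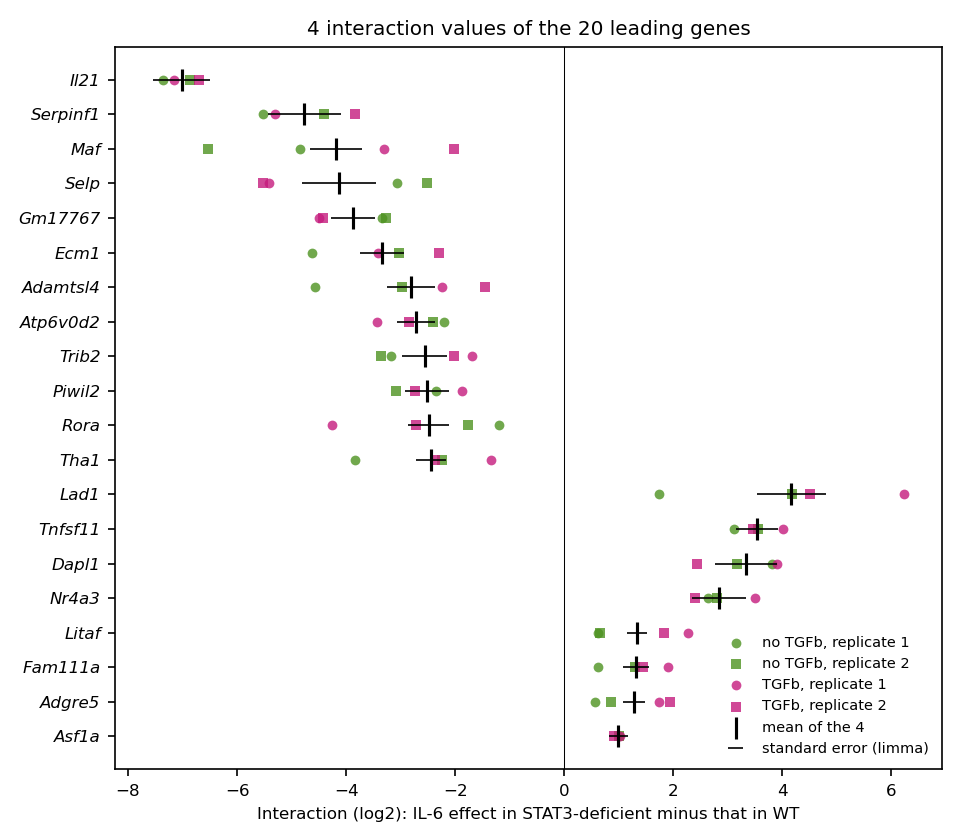
The 4 interaction values (log2) of the 12 lower and 8 higher leading genes, by TGFb state (colour) and replicate number (shape), with their mean and limma's standard error. All 4 values of each gene lie on 1 side of 0, and those of Il21 lie between -7.36 and -6.70.

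**Figure D3:**
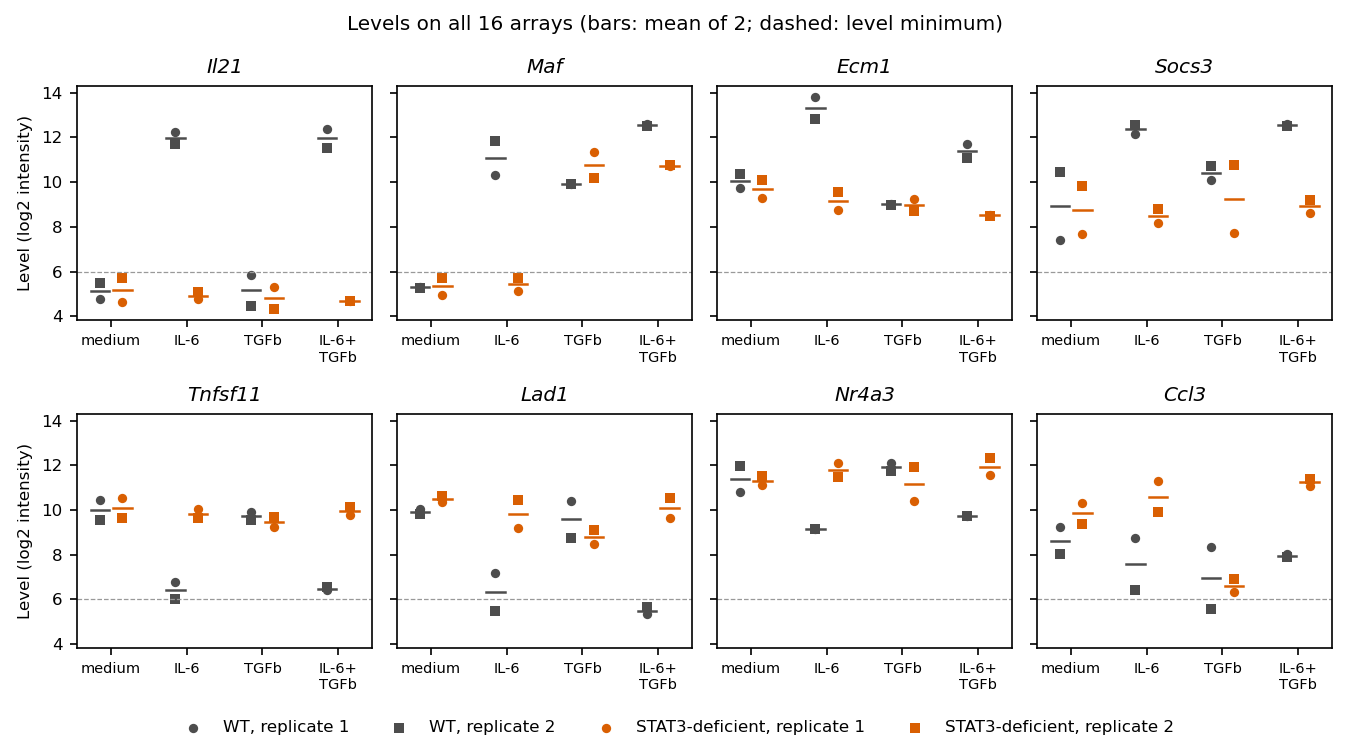
Level (log2 intensity) of 8 genes on all 16 arrays by condition, genotype (colour) and replicate number (shape), with bars at the mean of 2 and a dashed line at log2 6. The WT arrays with IL-6 stand apart for Il21, Ecm1, Tnfsf11, Lad1 and Nr4a3, whereas Socs3 and Ccl3 also differ between replicates.

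The IL-6 effect was larger in size in WT than in STAT3-deficient cells for all 46 genes. Among the 38 lower genes the median IL-6 effect was 1.35 in WT and -0.31 in STAT3-deficient cells, and among the 8 higher genes it was -1.69 and 0.23. Over all genes, no gene passed limma's threshold between the genotypes without IL-6 (38 at an unadjusted p under 0.05, and 2 past the threshold, 0.0154%, with the block, or 11 with the block and without STAT3-deficient TGFb replicate 2), and 1009 genes (7.76%) did with IL-6 (2294 with the block, 17.6%); these comparisons share their arrays with the interaction. Stat3 itself differed by -2.29 without IL-6 and did not pass (limma adjusted p = 0.640). The absence of calls without IL-6 therefore does not show that the genotypes were alike there. Both STAT3-deficient TGFb arrays that stood apart enter that comparison. Without IL-6 the genotypes lay close for the 46 genes, with a median difference of -0.02 among the lower and -0.10 among the higher genes and none above 0.46 in size. These values come from the arrays that chose the genes and are a description. A further comparison took the genes called for IL-6 in WT cells and read them in STAT3-deficient cells. The effects compared use separate arrays, but the call in WT used limma's spread over all 16 arrays. The choice of genes is therefore not independent of the STAT3-deficient arrays. IL-6 changed 212 genes in WT cells, 1.63% of those tested (438 with the replicate block, 3.37%), of which 172 rose (1.32%) and 40 fell (0.308%). Leaving out single arrays gave between 70 (without WT medium replicate 1) and 456 (without WT IL-6 replicate 2, where 192 were higher and 264 lower). In STAT3-deficient cells no gene passed in limma's test, with or without the block, and 578 genes had an unadjusted p under 0.05 (1110 with the block). With the block and without STAT3-deficient TGFb replicate 2, 6 genes passed. The 172 genes that rose had a median effect of 1.25 in WT and of -0.12 in STAT3-deficient cells, where 59 (34.3%) were above 0, against 42.9% of all genes. The 40 genes that fell had medians of -1.33 and 0.01, and 19 of them (47.5%) were below 0, against 57.1% of all genes. An effect of 50% or more of that in WT, in the same direction, was seen in STAT3-deficient cells for 0 of the 212 genes. Among the genes called with the replicate block it was seen for 1 of 331 that rose and 5 of 107 that fell. For the 40 genes that fell, the STAT3-deficient median was -0.24 without TGFb, where 34 were below 0, and 0.21 with it, where 12 were. The latter median became -0.05 without STAT3-deficient TGFb replicate 1 and 0.43 without replicate 2.

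**Figure D4:**
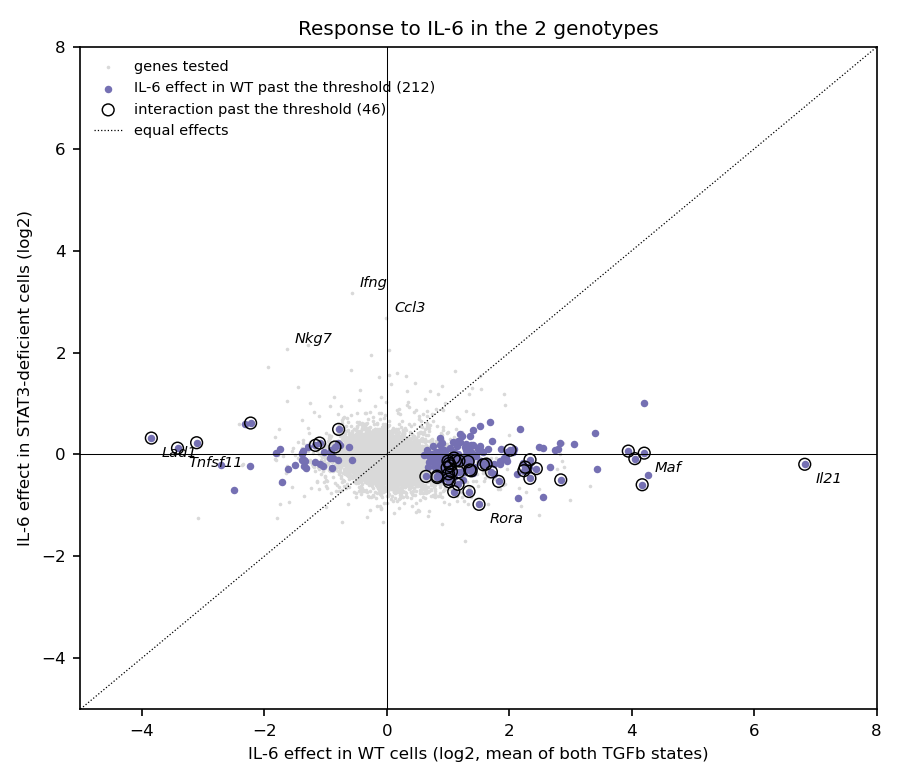
IL-6 effect (log2, mean of both TGFb states) of each gene in WT cells (horizontal axis) and in STAT3-deficient cells (vertical axis), with the 212 genes called for IL-6 in WT cells in colour, the 46 genes past the threshold for the interaction circled and the dotted line at equal effects. The coloured points spread along the horizontal axis and stay near 0 on the vertical one; the interaction and the WT effect share the WT arrays.

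None of the listed genes of the IL-6 pathway itself was past the threshold without the block. The gene lists here and below were chosen with earlier results of these data known. Their medians and shares are therefore a description and not a test. Socs3, which inhibits JAK kinases and gp130 signalling, read 12.17 and 12.54 in WT cells with IL-6 and 12.61 and 12.50 with both cytokines. Its level without IL-6 varied widely, with 7.39 and 10.46 in WT medium, 7.67 and 9.84 in STAT3-deficient medium, 10.11 and 10.72 in WT cells with TGFb, and 7.72 and 10.76 in their STAT3-deficient counterparts. All 4 STAT3-deficient arrays with IL-6 lay between 8.19 and 9.21. Its 4 values were nevertheless all below 0 at -4.26, -3.13, -1.59 and -3.34 (average -3.08, SE 1.05, adjusted p = 0.274, and 0.0625 with the replicate block). Bcl3, a nuclear partner of NF-kB, behaved alike in this respect, with -2.65, -1.81, -0.63 and -1.91 (average -1.75, SE 0.74), and passed with the block (adjusted p = 0.0271) but not without it (0.377). Of 13 listed receptor and JAK-STAT proteins 0 passed with or without the block, against 0.354% of all genes without and 1.86% with it. Their median interaction was -0.63, and 7 had 4 values below 0 (53.8%, against 17.7% of all genes). Among them Il6st, which encodes gp130, had values between -1.37 and -0.86 (average -1.17, SE 0.42, adjusted p = 0.291). For Il6st 1 of 3 other probe sets gave the opposite sign. Il6ra, the IL-6 receptor chain, averaged -0.63, with 1 value at -0.04. The 1 other probe set of Il6ra gave the opposite sign, and the mean of its probe sets gave -0.12. Jak2 and Jak3 averaged -0.98 and -0.76. Stat3 itself had values of -0.87, -1.24, 0.52 and -0.90 (average -0.62, SE 0.58, adjusted p = 0.702), and 1 of its 3 other probe sets gave the opposite sign. Of 21 feedback and direct STAT3 response genes 0 passed without and 3 with the block, namely Bcl3, Sbno2 (-1.41) and Vmp1 (-0.93), and 8 had 4 values below 0 (38.1%).

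Some genes differed by genotype in only 1 TGFb state by their values, although the difference between the states was past the threshold for no gene, with or without the block (unadjusted p under 0.05 for 243 and 436 genes). Without STAT3-deficient TGFb replicate 2 it was past the threshold for 1 gene, and for 9 with the block as well. Taken alone, the interaction passed for 3 genes without TGFb (0.0231%, Il21, Maf and Tha1, 17 with the block, 0.131%, and 119, 100 higher and 19 lower, without WT IL-6 replicate 2). With TGFb it passed for 10 genes (0.0769%), 8 lower (0.0615%) and 2 higher (0.0154%), and for 48 with the block (0.369%). Without STAT3-deficient TGFb replicate 2 this count was 130, and without replicate 1 it was 3. Il17a, the defining Th17 cytokine, was near log2 6 on all arrays without TGFb, between 5.95 and 6.27. With both cytokines the WT arrays read 10.16 and 11.58, far above the 6.29 and 6.51 of the STAT3-deficient arrays. STAT3-deficient TGFb replicate 1 stood out at 9.55, against 6.07 on replicate 2. The interaction values were accordingly 0.11 and -0.12 without TGFb and -7.03 and -5.06 with it (average -3.02, SE 0.81, adjusted p = 0.156). The average was -2.15 without STAT3-deficient TGFb replicate 1 and -3.89 without STAT3-deficient TGFb replicate 2. Prdm1, which encodes the repressor Blimp-1, showed the opposite arrangement. It read 9.53 and 7.48 in WT cells with IL-6 and between 5.04 and 6.19 on the other 14 arrays, with values of -4.07 and -2.05 without TGFb and 0.65 and -0.28 with it (average -1.44, adjusted p = 0.316). Serpinb1a, a protease inhibitor of Th17 cells, had values of -0.25, -4.33, -6.72 and -7.36 (average -4.67, SE 0.99) and passed with the block (adjusted p = 0.0271) but not without it (0.0807). Serpinb1a reached log2 6 only on WT arrays with IL-6. Without the block it passed in 2 of the 16 fits that left out 1 array, those without WT IL-6 replicate 1 (-5.71, adjusted p = 0.00156) and replicate 2 (-3.62, adjusted p = 0.0290), and with the mean of its probe sets (-3.39, adjusted p = 0.0474). Pou2af1, Ifitm3, Car2 and Itih5 completed the genes with the largest differences between the states, of -5.08, 6.24, 6.10 and 5.31, each with adjusted p = 1.00 for that difference. The STAT3-deficient TGFb arrays lay far apart for these genes, with replicate 1 and 2 at 10.12 and 4.17 for Pou2af1, 5.13 and 9.68 for Ifitm3, 6.74 and 9.22 for Car2 and 5.58 and 10.997 for Itih5. Without replicate 1 and without replicate 2 the average interaction was -1.34 and -4.31 for Pou2af1, 2.52 and 4.79 for Ifitm3, 2.14 and 3.38 for Car2, and 0.91 and 3.61 for Itih5. Without replicate 2 the average was past the threshold for Ifitm3 (adjusted p = 0.0452) and Car2 (adjusted p = 0.0269).

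Of 24 listed Th1 and cytotoxic genes, Tnfsf11 passed on the higher side, against 0.0615% of all genes, and with the block (0.146%) also Nkg7, a granule protein, and Fasl, a death ligand. No gene of the list passed with the mean of probe sets. The list's median was 0.72, which became 0.33 with the exchange and 1.16 without STAT3-deficient TGFb replicate 2, and 7 genes had 4 values above 0 (29.2%, against 12.6% of all genes), while 4 had 4 below. In WT cells Fasl read 8.12 and 9.09 in medium against 5.83 and 5.78 with IL-6, and 7.18 and 6.85 with TGFb against 4.46 and 4.32 with both. It read 7.90 and 9.78 in STAT3-deficient cells with IL-6 and 6.57 and 7.79 with both cytokines (average 2.51, adjusted p = 0.132, and 0.0281 with the block). Nkg7 took a different form, with an average IL-6 effect of -1.64 in WT and 2.07 in STAT3-deficient cells. In WT cells Nkg7 read 8.10 and 10.56 in medium against 8.59 and 10.06 with IL-6. With TGFb the WT arrays read 10.49 and 9.49, against 6.52 and 6.93 with both. STAT3-deficient TGFb replicates 1 and 2 read Nkg7 at 8.61 and 10.63. Its 4 values were 2.24, 0.72, 7.07 and 4.78. Its interaction averaged 3.70 (SE 0.94, adjusted p = 0.141, and 0.0319 with the block). The chemokine genes Ccl3 and Ccl4, chosen after their values were seen, had IL-6 effects of -0.01 and -0.12 in WT and of 2.68 and 1.52 in STAT3-deficient cells. For Ccl3 all 4 STAT3-deficient arrays with IL-6 lay between 9.89 and 11.39, against 6.41 to 8.76 on the WT arrays with IL-6. In medium they read 10.31 and 9.37 in STAT3-deficient and 9.22 and 8.01 in WT cells, and with TGFb 6.32 and 6.92 in STAT3-deficient and 8.33 and 5.55 in WT cells. Neither interaction passed (2.69 and 1.63, adjusted p = 0.263 and 0.367, and 0.0786 and 0.0947 with the block). Ifng, the defining Th1 cytokine, was too variable between replicates for a call, with values of -0.47, 4.64, 8.31 and 2.50 (average 3.74, SE 1.77, adjusted p = 0.431). Tbx21, the Th1 transcription factor, had -1.70, 1.21, 6.23 and 2.27 (average 2.00, adjusted p = 0.634), which turned to -0.18 with the STAT3-deficient arrays TGFb replicate 1 and IL-6 with TGFb replicate 1 exchanged.

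The other gene lists, set beside 0.354% of all genes past the threshold and a median of 0.00, gave few calls. With the block the share of all genes past the threshold was 1.86% (1.71% lower and 0.146% higher). Of all genes, 17.7% had 4 values below 0. Of 18 Th17 genes 3 passed (Il21, Maf and Rora), all lower, and 6 with the block (also Tmem176a, Tmem176b and Serpinb1a). The Th17 list's median was -1.37, and 11 genes had 4 values below 0 (61.1%). As the lists were chosen with earlier results of these data known, such shares depend in part on that choice. Ahr, a Th17 transcription factor, and Batf, an AP-1 factor, averaged -2.61 and -1.48 without passing (adjusted p = 0.121 and 0.252). Of 19 naive cell and migration genes Selp passed, and with the block also S1pr1, which guides exit from lymph nodes (-1.94), the transcription factor Foxo1 (-0.80), and the receptors Cxcr4 (-2.30) and Cysltr1 (-3.67), all lower. That list's median was -0.64, with 11 genes of 4 values below 0 (57.9%). Of 25 T cell activation genes Nr4a3 passed, the median was 0.51, and 10 had 4 values above 0 (40%, against 12.6% of all genes), among them Nr4a1 (1.01), Nr4a2 (1.37) and Egr3 (1.35), while 4 (16%) had 4 values below 0. No gene of that list passed with the exchange or with the mean of probe sets. Of 14 Th2 genes Ecm1 passed (median -0.17), and Il10, the anti-inflammatory cytokine, averaged -2.98 (adjusted p = 0.230). Of 25 TGFb response and regulatory T genes 0 passed, and with the block Smad3 (-1.80) and Gpr15 (-1.04) were lower and Ikzf2 (2.68) higher. The 4 values of Smad3 had 1 sign, but those of Gpr15 and Ikzf2 did not. Gpr15 had 0.48 and 0.88 without TGFb and -2.12 and -3.40 with it. Ikzf2 had -0.18 and 0.98 without TGFb and 5.86 and 4.045 with it. No gene passed, with or without the block, among 14 follicular helper genes (median -0.52), 34 interferon response genes (0.49), 21 survival and death genes (-0.30), 39 cell cycle genes (0.30) and 24 glycolysis and hypoxia genes (-0.11). With the 2 STAT3-deficient arrays exchanged as above, the interferon median turned to -0.14. The glycolysis median was -0.88 without STAT3-deficient TGFb replicate 1 and 0.41 without replicate 2, and the Th2 and regulatory T medians (-0.17 and -0.18) became -0.01 and 0.08 without replicate 2. The Th2 median was -0.78 without replicate 1 and -0.57 with the exchange. Foxp3, Gata3, Bcl6, Bcl2 and Il2ra did not pass, with averages of -0.18, -0.19, -0.41, -0.20 and -0.59. Their 4 values could be far from 0, as for Gata3 with -4.11, 0.28, 1.77 and 1.28. The signs of the averages of the first 4 depended on single arrays.

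**Figure D5:**
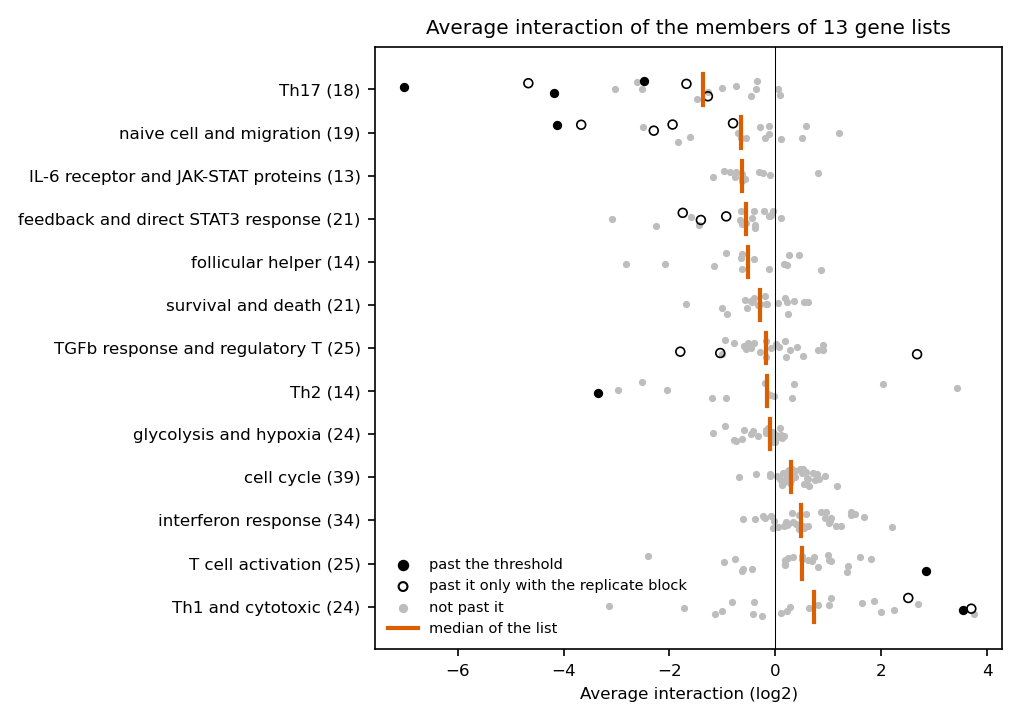
Average interaction (log2) of each tested member of 13 gene lists, with the number of members in brackets, filled points for those past the threshold, open points for those past it only with the replicate block, grey points for the others and a bar at the median. The Th17 list has the lowest median (-1.37) and the Th1 and cytotoxic list the highest (0.72). The lists were chosen with earlier results of these data known.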

How the data were processed

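The members and gene lists were chosen with earlier results of these data known. Total RNA was labelled with biotin and read on 16 Affymetrix arrays, per the labels' protocols. The deposited intensity values were summarised by the authors with RMA, per the submitters' processing notes; for its version, and for the step that left linear whole numbers, the answer is not given in the sources used here. Their normalization was kept (array medians 66 to 73), and the number of arrays limits the precision. Log2 was taken with no pseudocount. Of 45101 probe sets, 34945 had 1 gene symbol in the platform annotation, 932 several and 9160 none; 64 were array controls. Symbols were updated through the GRCm38.p6 gene table (34741 matched). Each of 18193 genes was represented by its brightest probe set, and the 13007 reaching log2 6 on at least 2 arrays were tested.

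Titles and genotype labels gave each array its group and replicate number. limma 3.58.1 (R 4.3.3) fitted a mean for each of the 8 groups (lmFit, contrasts.fit, eBayes, two-sided, 8 residual degrees of freedom), with Benjamini-Hochberg adjustment over the 13007 genes, and was tested on simulated data. Same-numbered arrays deviated together from their group means: over the 28 pairs of groups the correlations were 0.11 to 0.86 (median 0.33), so the replicate numbers pair the samples; what they stand for is not stated. Named were the 12 lower and up to 12 higher genes past the threshold with the largest average interaction and 4 values of 1 sign, a panel of 20 T cell genes, list members past the threshold, and the 3 genes each way with the largest difference between TGFb states. Alternatives were the replicate block, other filters, log2(value + 16), quantile normalization, array weights, a trended robust prior, the mean of probe sets, a test of the 4 values against 0, 2 arrays exchanged, and leaving out each array. Fits that join the block to an exchange or omission of arrays were added after the data were seen. Promoter windows were RefSeq's (Python 3.11.15, pandas 2.3.3); figures used matplotlib 3.10.9.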

Additional observations from a re-analysis of the deposited data

Results flagged for a closer look

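The IL-6 effect differed between the genotypes, by the test of the interaction in limma, for 46 genes, which is the comparison described above. Among 27220 probe sets tested without regard to names, 4509 had no single gene symbol and entered no comparison above. Of these, 7 were past the threshold for the average interaction (0.155%, against 0.264% of the named probe sets). All 7 were lower, with average interactions between -3.92 and -1.77 and 4 values of 1 sign each. The genes they represent are not named here.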

How the results depend on the processing

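Groups of 2 arrays limit every count. Leaving out 1 array moved the 46 genes of the average interaction by over 1.5 times in 15 of 16 fits, lower in 12 and higher in 3. Of the 20 leading genes, Il21, Maf, Gm17767, Ecm1 and Tha1 kept their call in all 29 alternatives and the 20 kept their sign in each they entered. The fewest calls were Asf1a's (11 of 29), and 7 of the 20 were kept with STAT3-deficient TGFb replicate 1 and IL-6 with TGFb replicate 1 exchanged. The causes were not tested. Leaving out any filter, a stricter one (log2 7 on 4 arrays), log2(value + 16), the trended robust prior and the mean of probe sets moved no count by over 1.5 times.

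Counts below are for the average interaction, that without and with TGFb, the IL-6 effect in WT, and the genotype effect without and with IL-6, in this order, where not said otherwise. Without a block they were 46, 3, 10, 212, 0 and 1009. With the replicate block, which pairs same-numbered arrays, they were 242, 17, 48, 438, 2 and 2294; the block changed the call of 2 of 42 named genes (Bcl3 and Serpinb1a, both gained). Quantile normalization gave 25 and, with TGFb, 2. Array weights gave 26 with TGFb. The 4 values against 0 gave 247 for the average. Exchanging the arrays gave 14 for the average and 604 for the genotype effect with IL-6. The block with the exchange gave 103 for the average, 16 with TGFb, 1 for the difference between TGFb states, 502 for WT, and 3 and 1938 for genotype. The block without STAT3-deficient TGFb replicate 1 gave 215, 5 without TGFb, 595 for WT and 2665 for genotype with IL-6. Without replicate 2 it gave 554, 5, 345, 9 for the difference between states, 595, 6 for IL-6 in STAT3-deficient cells, 11 and 2665. Leaving out each array gave 6 to 160, 0 to 119, 0 to 130, 70 to 456, 0 to 2 and 334 to 1311, 0 to 1 for the difference between states, and 0 for IL-6 in STAT3-deficient cells.

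Signs turned only for genes not past the threshold. With the exchange, with or without the block, Tbx21 was -0.18, Foxp3 0.13 and Bcl6 0.059. Leaving out single arrays gave -1.48 to 1.12 for Foxp3, -1.23 to 0.84 for Gata3, -0.83 to 0.015 for Bcl6 and -0.63 to 0.23 for Bcl2, and Bcl2 was 0.087 with the block without STAT3-deficient TGFb replicate 2.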
